A study of Capra hircus with 10 samples.

Results

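MicroRNAs chi-miR-204-5p and chi-miR-211 belong to one family with a shared seed, the stretch near the 5′ end that pairs with target RNAs. In mammals they lie in introns of TRPM3 and TRPM1, genes of cation channels, and the family is known from work on mesenchymal cells, where RUNX2, a transcription factor of bone formation, is among its targets. A circular RNA (circRNA) forms when the end of an exon is spliced back to the start of an upstream exon, and a read across that junction marks the circle. The circRNAs described here were chosen by a list of predicted pairs: each circRNA that the list pairs with chi-miR-204-5p or chi-miR-211 was taken, which gave 50 of 1327 circRNAs. The list gives names with no position and no score, so a pair is a prediction from sequence and not a measured binding.

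The study compared goat intramuscular preadipocytes (IMPA, day 0) with intramuscular adipocytes (IMA, day 3 of adipogenic induction), with 5 libraries in each group. All cells were wild type and came from intramuscular fat of the longissimus dorsi of 3 male Jianzhou goats aged 7 days. The induction medium was DMEM/F12 with 10% fetal bovine serum and 50 µmol/L oleic acid. The goat behind each library is not given in the sources used here. With 3 goats for 5 libraries in a group, some libraries of a group must share an animal. The p-values therefore measure the spread of these libraries and not of goats. Each library held 9622 to 15553 junction reads, and the smallest count above 0 was 2.

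Of the 50 paired circRNAs, 49 were paired with both miRNAs, and CNTROB circ_0008982 was paired with chi-miR-204-5p alone. The whole spliced sequence was paired in all 50, and in 6 of them the sequence around the junction was listed as well. They came from 46 host genes, and 49 were exonic while 1 was intergenic. Reads were found in all 10 libraries for 27 of them. PLA2G4A circ_0008230 had 0 reads in every library.

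In IMPA replicates 1 to 5 they made up 4.82%, 4.67%, 4.73%, 4.88% and 4.94% of the junction reads of the library. In IMA replicates 1 to 5 the share was 4.35%, 5.12%, 4.58%, 4.9% and 4.91%. The groups overlapped, and their means were 4.81% ± 0.109 (SD, n = 5) before induction and 4.77% ± 0.302 (SD, n = 5) at day 3. CAMSAP1 circ_0005860 was the most abundant of them, and without it the mean share was 3.42% at day 0 and 3.68% at day 3. The order of the group means was not stable, since the IMA mean was also the higher, at 4.88% or 4.82%, with IMA replicate 1 or 3 left out.

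Between IMA and IMPA, 2 of 47 tested paired circRNAs were higher in IMA and 0 were lower at an adjusted p under 0.01, with edgeR's quasi-likelihood test and Benjamini-Hochberg adjustment over all circRNAs tested. In the same test 12 of 1294 circRNAs passed, a background of 0.927%. At an adjusted p under 0.05, 4 of 47 passed, beside a background of 1.47%. The 2 calls added at 0.05, of CDYL and CAMSAP1, were lost in part of the alternatives given with their values. Both calls at 0.01 were circRNAs of 1 gene, LMO7, so they are not separate genes, and 0 of the 44 other tested members passed. At an unadjusted p under 0.05 edgeR gave 11 of the 47, against 172 of 1294 in all. DESeq2 called 2 of the 47 at 0.01, where 10 of 1294 passed in all (0.773%), and limma voom 3, where 12 passed (0.927%). The median log2 fold change was -0.07 over the paired circRNAs and -0.07 over all tested circRNAs. The other 3 paired circRNAs had reads in fewer than 5 libraries and were not tested. In bulk RNA, fewer cells of a type and less RNA per cell cannot be told apart.

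LMO7 encodes a LIM domain protein of cell junctions and the actin cytoskeleton. LMO7 circ_0006499 had 13, 6, 16, 10 and 19 junction reads in IMPA replicates 1 to 5 and 32, 25, 50, 24 and 31 in IMA replicates 1 to 5. Every IMA library was above every IMPA library. Normalized levels are TMM-scaled reads per 1000000 junction reads. The mean level of circ_0006499 rose from 949 ± 294 (SD, n = 5) at day 0 to 2906 ± 667 (SD, n = 5) at day 3. The ratio of these means was 3.06. The log2 fold change fitted by edgeR, made smaller by the prior count of 2, was 1.45 ± 0.21 (SE). Its edgeR Benjamini-Hochberg adjusted p was 1.4e-05.

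LMO7 circ_0006511 had 11, 5, 10, 13 and 6 reads in the IMPA libraries and 19, 18, 28, 24 and 20 in the IMA libraries. The groups again did not overlap. Its log2 fold change was 1.34 ± 0.23 (SE), with an edgeR Benjamini-Hochberg adjusted p of 0.00034. The third paired LMO7 circRNA, circ_0006514, had 0, 0, 5, 3 and 0 reads in IMPA and 3, 3, 3, 4 and 3 in IMA. These groups overlapped, and at this depth a difference was not detectable (edgeR, Benjamini-Hochberg adjusted p of 0.51).

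All 3 paired LMO7 circRNAs lie on the minus strand of chromosome 12 and hold the exon from 35551776 to 35552054, which is 279 nt long. Positions are as in the deposited files, which place circRNAs on versioned RefSeq chromosome sequences without an assembly name. None of the 6 LMO7 circRNAs without a pair holds this exon, and 0 of these 6 passed the test. The log2 fold changes of these 6 were 0.99 in circ_0006515, 0.64 in circ_0006510, 0.47 in circ_0006502, 0.02 in circ_0006496, -0.30 in circ_0006507 and -0.31 in circ_0006504, so that 2 were near or above the 0.67 of the paired circ_0006514. The most abundant, circ_0006502, had 19, 16, 18, 19 and 15 reads in IMPA and 20, 17, 24, 19 and 24 in IMA. Its reads overlapped between groups, its normalized values did not, and the edgeR Benjamini-Hochberg adjusted p was 0.24. Because the list gives no positions, whether the predicted sites lie in the shared exon is not known here.

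**Figure D1:**
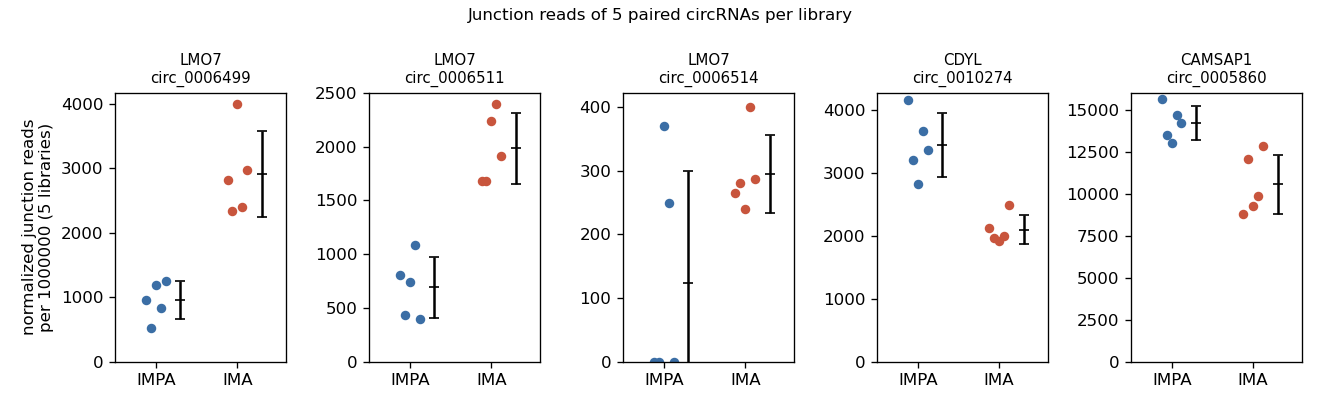
Normalized junction reads per 1000000 (vertical axes, each from 0) of 5 paired circRNAs in the IMPA and IMA libraries. Points are the 5 libraries of a group, and the black mark with bars is the mean ± SD, drawn down to 0 at the lowest. The IMA libraries of LMO7 circ_0006499 and circ_0006511 lie above all IMPA libraries, and those of CDYL and CAMSAP1 below.

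LMO7 also stood on a list of striated muscle genes. Of its 14 genes, 5 (FHOD3, LMO7, MYBPC1, MYPN and STAC) hosted 13 circRNAs, 5 of them paired, and 4 of the 13 were higher in IMA with 0 lower, where 6 of 1294 circRNAs were higher in all (0.464%). Those 4 were the LMO7 pair already counted above with MYBPC1 circ_0002854 and MYPN circ_0011446, from genes of the sarcomere, and in both of these every IMPA library was at the floor of 3 reads or fewer. MYBPC1 circ_0002854 had 0 reads in all 5 IMPA libraries and 7, 5, 10, 7 and 7 in IMA. It therefore entered the test through IMA alone and could be called in no direction but higher. It was not tested with any IMA library left out. With this direction fixed and the LMO7 calls counted before, the count of 4 does not test the list against the background. MYPN circ_0011446 had 2, 2, 3, 2 and 2 reads in IMPA and 7, 7, 13, 11 and 14 in IMA, and its call was lost in limma voom (Benjamini-Hochberg adjusted p of 0.017). The reads of the list summed to 63, 53, 75, 73 and 74 in IMPA and to 125, 112, 168, 123 and 126 in IMA. All IMA sums were above all IMPA sums. LMO7 gave most of these reads in every library, so the sums largely restate the LMO7 result. TTN, NEB, DMD and RYR1 hosted no circRNA with deposited counts. The part of muscle cells in the LMO7 result was not tested.

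FHOD3, a formin of sarcomere assembly, hosted circ_0010443, with 0, 0, 2, 2 and 0 reads in IMPA and 6, 5, 3, 4 and 6 in IMA. The groups did not overlap, but every IMPA library was at the floor, and the edgeR Benjamini-Hochberg adjusted p was 0.076. STAC, an adaptor of muscle calcium channels, hosted circ_0009924, with 0, 0, 3, 5 and 0 reads in IMPA and 5, 5, 5, 10 and 8 in IMA. Here the groups met at 5 reads, and the edgeR Benjamini-Hochberg adjusted p was 0.095. The FHOD3 and STAC circRNAs each had reads in 2 IMPA and 5 IMA libraries. Both therefore entered the test through IMA, the group where they were higher.

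Among the paired circRNAs with fewer reads in IMA, CDYL and CAMSAP1 came nearest to the threshold of 0.01. CDYL encodes a chromodomain protein of transcriptional repression. Its circ_0010274 had 57, 37, 38, 44 and 51 reads in IMPA and 24, 21, 24, 20 and 26 in IMA. No IMA library reached the lowest IMPA library, and the log2 fold change was -0.68 ± 0.16 (SE) with an edgeR Benjamini-Hochberg adjusted p of 0.016.

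CAMSAP1 binds the minus ends of microtubules. CAMSAP1 circ_0005860 had 215, 156, 176, 176 and 216 reads in IMPA and 100, 129, 116, 99 and 134 in IMA. The groups did not overlap. The log2 fold change was -0.43 ± 0.11 (SE) with an edgeR Benjamini-Hochberg adjusted p of 0.046, so that neither it nor CDYL passed 0.01 in this test. Both were lower in IMA in every alternative run, but the adjusted p depended on the scaling. With clean reads as library sizes CAMSAP1 was at 0.0011 and CDYL at 0.00043 in edgeR after Benjamini-Hochberg adjustment, and with uniquely mapped reads at 0.51 and 0.19. These scalings moved the median log2 fold change of all circRNAs from -0.07 to -0.32 and to 0.13. With 1 of the 10 libraries left out, the adjusted p (edgeR, Benjamini-Hochberg) was not under 0.05 in 7 of 10 fits for CAMSAP1 (0.0062 to 0.18) and in 4 of 10 for CDYL (0.0088 to 0.076), while the log2 fold changes stayed at -0.50 to -0.35 and at -0.76 to -0.61. The adjusted p was also not under 0.05 in 4 and 3 of 9 other alternatives, the replicate block among them for CAMSAP1 (0.067). Others passed 0.01: besides clean reads, limma voom for CAMSAP1 (Benjamini-Hochberg adjusted p of 0.0098) and a mean count of at least 10 for CDYL (edgeR, Benjamini-Hochberg adjusted p of 0.0077).

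HELLS, a helicase of chromatin remodelling, hosted circ_0011048, with 10, 15, 11, 8 and 16 reads in IMPA and 5, 3, 8, 4 and 2 in IMA. Its normalized values did not overlap between groups, and the edgeR Benjamini-Hochberg adjusted p was 0.13. The intergenic circ_0008421 had 8, 4, 19, 11 and 8 reads in IMPA and 5, 3, 3, 2 and 3 in IMA. ERMARD circ_0005156 had 5, 16, 12, 9 and 19 reads in IMPA and 6, 2, 5, 4 and 8 in IMA. In both of these the groups overlapped, and neither passed (edgeR, Benjamini-Hochberg adjusted p of 0.15 and 0.21).

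RTCA, an RNA cyclase, and CEP120, a centriole protein, hosted 2 of the 5 most abundant paired circRNAs. RTCA circ_0001914 had 29, 30, 51, 44 and 49 reads in IMPA and 23, 39, 25, 31 and 36 in IMA. CEP120 circ_0004008 had 27, 28, 30, 18 and 37 reads in IMPA and 19, 32, 23, 20 and 29 in IMA. Both overlapped between groups, and the sign of their small fold changes turned with the library scaling or with a library left out.

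Non-junction reads cover the same splice sites without the back-splice and come mainly from linear RNA. The deposited table gives them only where a library had junction reads, so the test took the 690 circRNAs with a value in all 10 libraries, of which 27 were paired. This departs from the planned filter, and was settled after the files were seen. Of the 27, 2 were higher in IMA and 0 lower at 0.01 in edgeR, against a background of 21.7%. Both were LMO7 loci, which share linear reads: circ_0006511 with a log2 fold change of 0.26 (edgeR, Benjamini-Hochberg adjusted p of 0.00046) and circ_0006499 with 0.26 (0.0012). The rise was not limited to paired loci. Of the LMO7 circRNAs without a pair, 3 were tested for non-junction reads, and circ_0006504 passed with 0.19 (0.0077), while circ_0006502 with 0.17 (0.016) and circ_0006496 with 0.12 (0.095) did not. The call of circ_0006504 was lost in 7 of 10 fits with a library left out (all but those without IMPA replicate 3 or 5 or IMA replicate 1) and in 4 of 6 other alternatives, and with clean reads as library sizes it turned to a log2 fold change of -0.46. With the planned filter, where missing values had to be entered as 0, 1 of 47 passed, LMO7 circ_0006511, beside 56 of 1294 in all (4.33%). The call of circ_0006499 was lost there, without TMM, and in limma with missing values. With clean reads as library sizes the direction turned: 25 of 27 were lower in IMA, as were 592 of 690 circRNAs, and the median log2 fold change of all was -0.64. The uniquely mapped share of clean reads was lower in every IMA library than in every IMPA library. With uniquely mapped reads as library sizes, LMO7 circ_0006511 was higher and AASS circ_0002258 lower, circ_0006499 again did not pass, 142 of 690 circRNAs passed in all (20.6%), and that median was -0.05. Without IMPA replicate 4, 5 of 28 passed, beside 138 of 716 in all (19.3%).

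Circular share is a ratio of reads at these sites. Junction reads were counted with a weight of 2, since a linear RNA can give non-junction reads at both ends, and divided by the weighted total of both kinds. In LMO7 circ_0006499 it was 1.95% in IMPA and 6% in IMA, and in circ_0006511 it was 1.49% and 4.34%. ASB7 circ_0009796, from a gene of a ubiquitin ligase subunit, was at 23.5% and 38.8%. These 3 of 27 passed edgeR at 0.01, all higher in IMA, beside a background of 2.9%, and all 20 circRNAs that passed were higher. ASB7 was at 39.4%, 35.3%, 35.2%, 55.4% and 28.8% in IMA replicates 1 to 5, and its call was lost without IMA replicate 4, where 2 of 28 passed, both LMO7, beside 11 of 737 in all (1.49%). The ratio of junction to non-junction reads was shifted for circRNAs at large, by a median of 0.28 on the log2 scale. When each kind of reads was scaled by its own total, a check chosen after that shift was seen, the background was 0.726% and 2 of 27 passed, both LMO7. ASB7 did not pass there (edgeR, Benjamini-Hochberg adjusted p of 0.059).

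A longer circle has more room for a predicted site, so paired circRNAs were set beside those without a pair within bins of spliced length. The median spliced length was 339 nt for the 50 and 319 nt for the rest. Paired circRNAs made up 2.14% of the bin under 200 nt, 4.07% from 200 to under 300 nt, 3.28% from 300 to under 400 nt and 4.49% from 400 to under 600 nt. From 600 nt on they were 3 of only 10 circRNAs. Medians of the log2 fold change for paired and other circRNAs were -0.01 and -0.03 under 200 nt, 0.10 and -0.18 from 200 nt, -0.18 and -0.07 from 300 nt, and -0.07 and 0.05 from 400 nt. From 600 nt on they were -0.42 and 0.22, over 3 and 7 circRNAs. The order of this pair of medians differed among bins. Median circular share was also compared, for circRNAs with both kinds of reads in all libraries. For paired and other circRNAs in IMPA it was 22.1% and 10.6% under 200 nt and 16.7% and 8.22% from 200 nt. It was 18.6% and 9.9% from 300 nt, 20% and 12.2% from 400 nt, and 20.6% and 23.9% from 600 nt on. These medians cover only 1, 5, 10, 8 and 3 paired circRNAs. In IMA the order was the same in each bin. None of these values were tested.

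**Figure D2:**
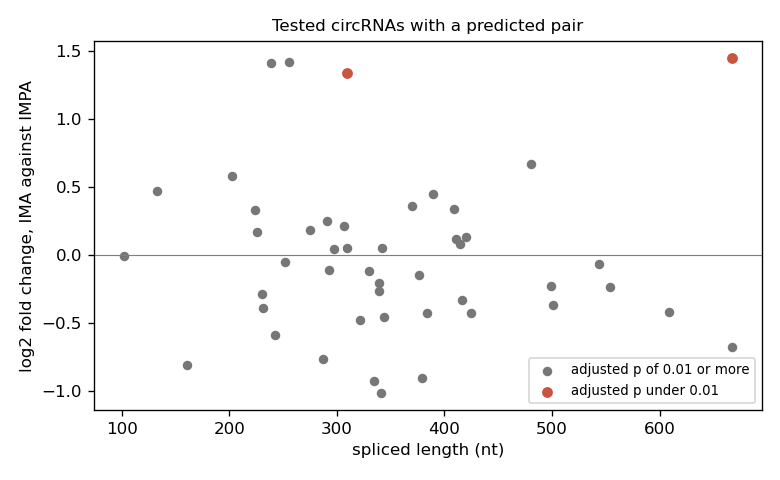
Spliced length in nt (horizontal axis) and log2 fold change of junction reads, IMA against IMPA (vertical axis), for the 47 tested paired circRNAs. Each point is 1 circRNA. The 2 points with an adjusted p under 0.01 are both from LMO7, at 667 and 309 nt.

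The 3 longest paired circRNAs were LMO7 circ_0006499 and CDYL circ_0010274, both of 667 nt, and AASS circ_0002258, of 609 nt, from a gene of lysine breakdown. The shortest was DDX10 circ_0007742, of 102 nt, from an RNA helicase gene. BRIP1 circ_0008868 and LOC108634524 circ_0012098 followed, both of 133 nt. After the family itself, chi-miR-145-5p shared the most circRNAs with them, 9, which is 8.33% of its own list of 108, the second in size, and 18% of the 50. The next, chi-miR-188-5p, shared 8, which is 34.8% of its list of 23 and 16% of the 50. Of all circRNAs, 3.77% were among the 50.

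The junction sequence was also listed for ASAP1 circ_0007477, RTCA circ_0001914, CEP120 circ_0004008, ERMARD circ_0005156, DOCK1 circ_0011120 and SNX29 circ_0010728. DOCK1 activates the small GTPase RAC, and its circRNA had 20, 6, 16, 7 and 28 reads in IMPA and 19, 9, 12, 8 and 13 in IMA. SNX29 belongs to the sorting nexins, and its circRNA had 4, 3, 5, 7 and 10 reads in IMPA and 4, 3, 8, 4 and 2 in IMA. In both the groups overlapped.

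Other lists, also chosen with earlier results known, gave the setting. Of 15 genes that host the miRNA family or are commonly named as its targets, RUNX2, SMAD4 and TGFBR2 hosted 4 circRNAs. Of these, 0 were paired and 0 were called for junction reads. For non-junction reads TGFBR2 circ_0010123 was lower in IMA, with a log2 fold change of -0.31 (edgeR, Benjamini-Hochberg adjusted p of 0.0016). SMAD4 circ_0010613 and RUNX2 circ_0010318 did not pass 0.01 there (edgeR, Benjamini-Hochberg adjusted p of 0.39 and 0.053). AGO2 was the single host among 12 genes of miRNA processing and silencing. AGO2 circ_0007493 was not called for junction reads (edgeR, Benjamini-Hochberg adjusted p of 0.84). It was lower for non-junction reads, with a log2 fold change of -0.46 (edgeR, Benjamini-Hochberg adjusted p of 0.00058). Of 17 adipocyte genes, PLIN2, a lipid droplet protein, was the only host, and its circ_0004263 had 2, 4, 4, 2 and 3 reads in IMPA and 7, 6, 10, 9 and 7 in IMA. These groups did not overlap, with an edgeR Benjamini-Hochberg adjusted p of 0.076. For non-junction reads PLIN2 circ_0004263 had a log2 fold change of 1.93 (edgeR, Benjamini-Hochberg adjusted p of 1.5e-14), in a test where 21.7% of circRNAs passed. Of 16 genes of preadipocytes and fibroblasts, 5 hosted 12 circRNAs, of which 11 were tested. The reads of this list summed to 251, 160, 231, 164 and 261 in IMPA and to 126, 116, 156, 118 and 128 in IMA. All IMA sums were below all IMPA sums, which were not scaled by library size, and CEMIP was the most abundant host. CEMIP circ_0009677 alone gave 178, 121, 157, 111 and 191 of these reads in IMPA and 74, 76, 109, 78 and 80 in IMA. The sums therefore largely restate the CEMIP result. Elsewhere in the list, log2 fold changes of junction reads were 2.03 in COL5A1, 0.70 in LTBP1, 0.01 and 0.12 in FBN1 and -0.59 in COL5A2. COL5A1 circ_0005870 was higher and CEMIP circ_0009677 lower in IMA, where 12 of 1294 circRNAs passed in all. COL5A1 had 0, 0, 3, 0 and 0 reads in IMPA, which is at the floor, and 9, 9, 6, 8 and 6 in IMA, so it entered the test through IMA, and its call was lost without IMPA replicate 1 or 5 (edgeR, Benjamini-Hochberg adjusted p of 0.013 and 0.014). The call of CEMIP was lost without TMM, with uniquely mapped reads as library sizes and without IMPA replicate 1 or 5 or IMA replicate 1, 2 or 4 (edgeR, Benjamini-Hochberg adjusted p up to 0.19). For non-junction reads CEMIP circ_0009677 was lower, with a log2 fold change of -1.22 (edgeR, Benjamini-Hochberg adjusted p of 1.2e-14). CEMIP circ_0009657 was lower as well, with -1.31 (edgeR, Benjamini-Hochberg adjusted p of 2.2e-15). Others of that list were higher there. COL5A2 circ_0000993 had 0.63, and FBN1 circ_0005404 and circ_0005405 had 0.34 and 0.29 (edgeR, Benjamini-Hochberg adjusted p of 7.3e-13, 1.8e-05 and 0.0001). MYPN circ_0011446 of the muscle list was higher there, with 0.84 (edgeR, Benjamini-Hochberg adjusted p of 6.9e-08). Genes of endothelial cells (5) and macrophages (4) hosted none.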

How the data were processed

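Junction read counts per circRNA and library were used as deposited by the authors, who removed ribosomal RNA, called circRNAs with find_circ and CIRI2 and kept those found by both. The deposited values named TPM are counts per 1000000 reads (CPM) made by the authors and were used only as a check. Tests were run with edgeR 4.0.16 in R 4.3.3 (TMM, glmQLFit, glmQLFTest, prior count of 2) and Benjamini-Hochberg adjustment. They covered 1294 circRNAs, those whose reads were found in 5 or more of the libraries. A standard error is the log2 fold change over the root of F. Tests were tested on simulated data. The design for non-junction reads kept loci above 0 in at least 5 libraries. Because absent values are missing and not 0, loci with a value in all 10 libraries were used instead. That change, limma 3.58.1 with missing values, non-junction reads over clean or uniquely mapped reads and the scaled circular share were chosen after the data were seen. The circular share model had a term per library, with no dispersion trend. Alternatives set earlier included DESeq2 1.42.0, limma voom, other library sizes and filters, a replicate block and each library left out. Members and lists were chosen with earlier results of these data known. Named circRNAs are those past 0.05, the 5 next by p, the 5 most abundant, those called in other readouts, those of listed hosts, the 3 longest and shortest, and up to 5 with a junction pair. The circRNA table names 10 further samples, which were not used. A planned search for seed matches needs sequence and was not run.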

Additional observations from a re-analysis of the deposited data

How the results depend on the processing

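The 2 LMO7 calls for junction reads held in each alternative run, including each library left out. Counts for junction reads moved as follows. With clean reads as library sizes, 4 paired circRNAs and 25 of all circRNAs were called at 0.01. With the reported TMM scaling, 4 and 19 were called at an adjusted p of 0.05. With a library left out, 2 to 3 paired circRNAs were called, and 6 to 12 of all circRNAs (6 without IMA replicate 4, 7 without IMA replicate 1 or 2). Residual correlations of same-numbered libraries were -0.052 to 0.011, which gave no sign that the replicate numbers pair libraries. Whether a number stands for a shared goat is not known here. With the replicate block, 2 paired circRNAs and 11 of all were called for junction reads, and 2 and 173 of 690 for non-junction reads.

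For non-junction reads, 8 paired circRNAs and 246 of all 690 were called at 0.05. At 0.01, 25 and 595 were called with clean reads as library sizes, 2 and 142 with uniquely mapped reads, and 1 and 56 (of 1294) with the planned filter and missing values entered as 0. With a library left out 2 to 5 paired circRNAs and 116 to 152 of all were called (5 and 138 without IMPA replicate 4). For circular share 2 to 3 and 11 to 23 were called with a library left out (2 and 11 without IMA replicate 4, where ASB7 was lost). Without CAMSAP1 the share of junction reads was 3.42% in IMPA and 3.68% in IMA. RTCA turned to a log2 fold change of 0.13 with uniquely mapped reads as library sizes, and ranged from -0.23 to 0.00 with a library left out (0.00 without IMA replicate 3). CEP120 turned to -0.24 with clean reads, and ranged from -0.03 to 0.17 with a library left out (-0.01 without IMPA replicate 4, -0.03 without IMA replicate 2). The causes were not tested. Of counts above 0, 68.8% were under 10, and at this depth a small change of such a circRNA was not detectable.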
